A study of Homo sapiens with 8 samples.

Results

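WNT signalling genes were examined in chromatin of KGN cells, a human granulosa tumour cell line, as 46 genes among 19758 protein-coding genes: 17 WNT ligands, 12 receptors (FZD1 to FZD10, LRP5 and LRP6), 3 R-spondins, 7 antagonists, the 2 axin scaffolds, and 5 genes of the transcription step (CTNNB1, TCF7, TCF7L1, TCF7L2 and LEF1). The genes were taken by name as members of the pathway, and a gene was called marked when a merged peak lay within 1 kb of its start. KGN cells had been given 1 mM butyrate for 6 h or had been left without it. Chromatin of each condition was precipitated with an antibody against H3K9ac, against H4K16ac, or with IgG, and an input was kept, giving 8 samples. The 2 inputs are not analysed here. With 1 library per condition and antibody, no difference between conditions could be tested, and every comparison below sets 1 butyrate library beside 1 control library.

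WNT proteins are secreted, lipid-modified ligands that bind Frizzled receptors together with the coreceptors LRP5 or LRP6. Binding stops the axin scaffold from marking β-catenin for destruction, and β-catenin (CTNNB1) then acts in the nucleus with the TCF and LEF factors. R-spondins keep Frizzled receptors on the cell surface, whereas DKK, SFRP, NOTUM and TRABD2B proteins limit the ligands or the coreceptors, and in the ovary WNT4 and RSPO1 act in gonad development. H3K9ac and H4K16ac are acetylations of histone tails found at open chromatin, and butyrate inhibits histone deacetylases.

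The peak lists themselves differed between conditions, and the main counts of WNT genes are therefore given beside the same count over all genes. The H3K9ac lists held 79356 merged peaks with butyrate and 22215 in control, a ratio of 3.57, whereas the H4K16ac lists held 33752 and 73586 merged peaks, a ratio of 0.459. The butyrate H3K9ac list reached down to a −log10 p of 2.97 and the control list to 3.46. In H4K16ac, 1.13% of butyrate peaks and 39.6% of control peaks had a q of 0.05 or less. The IgG lists held 2 peaks with butyrate and 6 in control, and no WNT gene had one. The numbers of reads behind the lists are unknown. Of 11 granulosa cell markers, 4 had an H3K9ac promoter peak with butyrate and 3 in control: FOXL2, INHA and CYP11A1 did in both conditions, and AMHR2 with butyrate alone. AMH, FSHR, NR5A1, CYP19A1, STAR, HSD3B2 and GATA4 had none in either condition. Of the other cell types' markers, 4 of 4 ovarian stroma genes had one with butyrate and 1 in control, 1 of 4 blood genes with butyrate and 0 in control, 1 of 3 endothelial genes with butyrate and 0 in control, and 1 of 3 epithelial genes in each.

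H3K9ac lay at WNT gene promoters in shares near those of all genes. With butyrate 31 of the 46 genes had an H3K9ac promoter peak (67.4%, exact 95% interval 52.0 to 80.5%), against 24 in control (52.2%, 36.9 to 67.1%). The intervals treat genes as draws and cover counting error only. Over all genes the shares were 63.7% with butyrate and 54.6% in control. Of the WNT genes, 24 were marked in both conditions, 7 with butyrate alone and none in control alone, and 15 in neither. Of the 24 with a control peak, 0 were without one after butyrate, where 0.334% of all such genes were. Over all genes, 9.29% were marked with butyrate alone, 0.182% in control alone and 54.4% in both. Among genes without a control peak, 7 of 22 WNT genes had one with butyrate (31.8%, 13.9 to 54.9%), against 20.5% of all 8972 such genes, a share inside that interval. When each H3K9ac list was cut to equal numbers of its top peaks, 6 WNT genes were marked with butyrate alone and 0 in control alone, while over all genes these shares came to 3.23% and 2.65%.

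The 7 genes marked with butyrate alone were 3 ligands (WNT2B, WNT4, WNT5B), 1 antagonist (TRABD2B), 1 scaffold (AXIN2) and 2 transcription factors (TCF7, TCF7L1). The fold, −log10 p and −log10 q given for a peak come from the authors' peak calling and rank peaks within 1 list. The strongest butyrate peaks of these 7 genes had a −log10 p of 7.25 or more, above the lowest value of the control list. Their median −log10 q was 8.93 over 7 genes, and that of all 1836 genes marked with butyrate alone was 4.44.

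The promoters of the 4 of these genes with the strongest butyrate peaks in the promoter table used here are shown, each running from 250 bases before a RefSeq start to 50 bases after it (GRCh38.p14, 5′ to 3′ along the gene). TRABD2B is at chr1:47997336-47997635 on the minus strand, WNT5B at chr12:1628981-1629280 on the plus strand, TCF7L1 at chr2:85133142-85133441 on the plus strand and WNT4 at chr1:22143048-22143347 on the minus strand. Capitals mark GGGCGG, the core letters of the GC box, or CCGCCC, its complement, and TATAAA or its complement TTTATA. Matches that overlap run together.
TRABD2B: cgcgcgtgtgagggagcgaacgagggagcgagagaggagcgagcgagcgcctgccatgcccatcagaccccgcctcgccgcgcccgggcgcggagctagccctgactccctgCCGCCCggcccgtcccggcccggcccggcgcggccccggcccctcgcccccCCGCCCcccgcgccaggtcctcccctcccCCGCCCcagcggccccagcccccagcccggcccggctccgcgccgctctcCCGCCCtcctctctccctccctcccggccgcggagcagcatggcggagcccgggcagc
WNT5B: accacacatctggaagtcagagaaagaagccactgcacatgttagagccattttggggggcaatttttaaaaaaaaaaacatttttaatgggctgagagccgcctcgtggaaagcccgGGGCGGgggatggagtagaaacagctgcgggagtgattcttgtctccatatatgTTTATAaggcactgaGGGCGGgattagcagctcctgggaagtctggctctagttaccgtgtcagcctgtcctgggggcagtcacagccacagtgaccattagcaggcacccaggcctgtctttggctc
TCF7L1: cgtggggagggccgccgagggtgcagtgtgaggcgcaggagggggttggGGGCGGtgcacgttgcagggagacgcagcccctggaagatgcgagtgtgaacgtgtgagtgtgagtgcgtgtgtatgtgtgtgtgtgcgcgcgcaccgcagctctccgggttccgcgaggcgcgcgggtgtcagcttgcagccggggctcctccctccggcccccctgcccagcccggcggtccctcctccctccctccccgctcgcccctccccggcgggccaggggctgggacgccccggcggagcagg
WNT4: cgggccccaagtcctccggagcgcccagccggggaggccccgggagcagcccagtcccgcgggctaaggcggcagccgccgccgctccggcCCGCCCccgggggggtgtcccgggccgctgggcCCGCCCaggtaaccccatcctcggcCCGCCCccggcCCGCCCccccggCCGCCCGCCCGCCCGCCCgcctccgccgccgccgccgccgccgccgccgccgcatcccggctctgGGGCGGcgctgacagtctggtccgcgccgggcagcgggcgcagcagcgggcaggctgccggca

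These 4 sequences differed in composition and in how they lay under the butyrate peak. All 300 bases of the TRABD2B window and all 300 of the TCF7L1 window lay under the strongest peak, against 66 bases for WNT4 and 0 for WNT5B, whose peak lay further into the gene. GGGCGG occurred 4 times in TRABD2B, 2 times in WNT5B, 1 time in TCF7L1 and 9 times in WNT4, counted on both strands, and 56.3% of all 22154 promoter windows held it. WNT5B alone of the 4 held TATAAA, and only as its complement TTTATA along the gene. On either strand, 9.47% of all windows held it. WNT5B also had the fewest CpG, with an observed over expected ratio of 0.352. That ratio was 0.876 in TRABD2B, 0.756 in TCF7L1 and 0.872 in WNT4, and its median over all windows was 0.738.

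The letters CTTTGAT and CTTTGAA, which TCF and LEF factors are known to bind, were also searched on both strands. Either occurred in 5.49% of all windows. Among the 32 WNT genes with a window, DKK1 held CTTTGAA. Windows of WNT genes marked with H3K9ac in both conditions had a median CpG ratio of 0.875 (14 genes), those marked with butyrate alone 0.74 (6 genes) and those marked in neither 0.708 (12 genes). The ratio of the unmarked windows ran from 0.256 in WNT8B to 1.12 in WNT2, so that a CpG-rich window was present without a peak.

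Of the 17 ligands, 10 had an H3K9ac promoter peak with butyrate and 7 in control. WNT4, a ligand of ovarian development, had a butyrate peak at chr1:22143282-22144101, 820 bp wide, with a fold of 4.11 and a −log10 q of 6.84. Its summit lay at -354 bp from the WNT4 start (upstream of it), and the nearest control peak was 88485 bp away. WNT5B, a ligand of β-catenin-independent signalling, had a 659 bp butyrate peak at chr12:1629927-1630585, with a −log10 q of 14.9 and a fold of 7.51. The authors placed its centre in the first intron, with the summit 1068 bp downstream of the authors' start. The nearest control peak lay 11258 bp from the RefSeq start of the gene, which is 12141 bp from the authors' start. The WNT5B peak was thus stronger in its list than the WNT4 peak, but lay off the promoter window printed above.

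WNT2B, another ligand, had 2 butyrate peaks in its promoter, 895 bp in sum. The stronger, at chr1:112465787-112466131, had a −log10 q of 4.94. The nearest control peak, chr1:112508658-112509069, lay 41224 bp away, over another RefSeq start of WNT2B, with a −log10 q of 2.87. Counting every RefSeq start in the promoter table therefore put WNT2B among the genes marked in both conditions, which left 6 marked with butyrate alone.

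The 7 ligands marked in both conditions were WNT5A, WNT6, WNT7A, WNT7B, WNT9A, WNT10B and WNT11, and each had the wider promoter peaks with butyrate. WNT5A, best known for β-catenin-independent signalling, had the widest promoter peak of all members, 6650 bp with butyrate (chr3:55483695-55490344, −log10 q of 23.0) and 3031 bp in control (chr3:55485386-55488416, −log10 q of 14.6). At its promoter WNT7B had a peak of 4894 bp with butyrate, against 830 bp in control. WNT11, which acts in cell movement, had a 4796 bp peak with butyrate and a 238 bp peak in control, at a −log10 q of 12.5 and 1.9. The whole control peak of WNT5A lay inside the butyrate peak, so that the butyrate peak extended past it at both ends.

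The other ligand promoters followed the same order of widths. Summed over a promoter's peaks, WNT6 had 4396 bp with butyrate and 416 bp in control, and WNT9A had 3937 bp and 1061 bp. WNT7A, a ligand of the female reproductive tract, had 2407 bp with butyrate and 535 bp in control, and WNT10B had 1228 bp and 547 bp. The ratio of butyrate to control width ran from 2.19 in WNT5A to 20.2 in WNT11, with a median of 4.5 over the 7 ligands. The control peak of WNT11 was narrow and weak, so its ratio rests on a peak near the bottom of the control list. With the RefSeq start only, WNT11 counted as marked with butyrate alone, WNT5A and LRP5 as unmarked in both conditions, and WNT5B and TCF7 as unmarked with butyrate. With the authors' start only, AXIN1 counted as unmarked in both.

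The 7 ligands without an H3K9ac promoter peak were WNT1, WNT2, WNT3, WNT3A, WNT8B, WNT10A and WNT16. The nearest peak to the start of WNT3A, a ligand of the β-catenin branch, lay 2676 bp away with butyrate and 59077 bp away in control. For WNT1, the founding member of the family, the distances were 5301 bp with butyrate and 6691 bp in control. WNT8B had its nearest peak at 29706 bp with butyrate and 65952 bp in control, and WNT2 at 61986 bp and 366702 bp. WNT16 had it at 66240 bp with butyrate and 66431 bp in control. In each of these 5 genes the butyrate list had the nearer peak, in a list 3.57 times as long.

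Every one of the 12 receptors carried H3K9ac at its promoter with and without butyrate, although LRP5 did so at the authors' start alone, 14197 bp from its RefSeq start. Some control peaks were weak, with a −log10 q of 2.61 in FZD10, 3.64 in FZD4, 3.99 in FZD3 and 4.27 in FZD8. The control median over all marked genes was 13.6. At a −log10 q of 5 or more these receptors counted as marked with butyrate alone. At a fold of 5 or more FZD1, FZD3, FZD4, FZD8 and FZD9 did, and LRP6 was marked in control alone. The 10 Frizzled receptors bind WNT ligands at the cell surface. Their summed widths ran from 932 bp (FZD9) to 2394 bp (FZD7) with butyrate and from 265 bp (FZD9) to 1503 bp (FZD6) in control. FZD10 had 1691 bp with butyrate and 347 bp in control, the highest ratio among receptors at 4.87. FZD6 was the receptor that went the other way, with 1251 bp with butyrate and 1503 bp in control. The coreceptor LRP5 had 3534 bp with butyrate and 1387 bp in control, and LRP6 had 2541 bp and 2084 bp. The −log10 q was 17.9 with butyrate and 14.8 in control at LRP5, and 9.36 and 18.5 at LRP6. The median ratio over the 12 receptors was 2.02, and 11 of the 12 were wider with butyrate. The start of FZD8 lies 550 bp from that of LOC124902528, so its peak cannot be assigned to 1 of the 2 genes.

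None of the 3 R-spondins (RSPO1, RSPO2, RSPO3) had an H3K9ac promoter peak in either condition. The nearest peak to the RSPO1 start was 2518 bp away with butyrate and 38936 bp away in control. For RSPO2 it was 55646 bp with butyrate and 162880 bp in control, and for RSPO3 the distances were 147915 bp and 147369 bp. RSPO1 had 1 peak inside the gene with butyrate and 0 in control, and RSPO2 and RSPO3 had none of either mark.

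Of the 7 antagonists, 3 had an H3K9ac promoter peak with butyrate (DKK1, NOTUM, TRABD2B) and 2 in control (DKK1, NOTUM). TRABD2B, a protease that inactivates WNT ligands by cleaving them, had the strongest peak of the 7 genes marked with butyrate alone, at chr1:47996942-47997993, 1052 bp wide, with a fold of 8.39 and a −log10 q of 23.4. Its summit lay at -193 bp from the start, and the nearest control peak was 548285 bp away. DKK1, which binds LRP5 and LRP6 and blocks them, had 2171 bp of promoter peak with butyrate and 340 bp in control, at a −log10 q of 16.8 and 3.36. NOTUM, an enzyme that removes the lipid of WNT ligands, had 896 bp with butyrate and 840 bp in control. Its −log10 q was 12.4 with butyrate and 18.5 in control, so its peak was the stronger in control.

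The SFRP genes, whose products bind WNT ligands, had no H3K9ac promoter peak in either condition. SFRP1 had its nearest peak 181129 bp away in both conditions. SFRP2 had it 212873 bp away with butyrate and 321350 bp away in control. SFRP4 had a peak 3844 bp away with butyrate and 3868 bp in control, near the start of EPDR1, which lies 3744 bp from that of SFRP4. DKK3 had no peak nearer than 14185 bp with butyrate and 34723 bp in control, but 9 peaks inside the gene with butyrate and 0 in control.

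Both axins were marked with butyrate, and AXIN1 alone in control. AXIN1, the constitutive scaffold of the β-catenin destruction complex, had 2782 bp with butyrate and 478 bp in control, at a −log10 q of 12.3 and 17.4. AXIN2, itself a widely used target gene of β-catenin signalling, had a 1165 bp butyrate peak at chr17:65560705-65561869, with a fold of 5.46 and a −log10 q of 8.93. The authors placed its centre in the first intron, and the nearest control peak was 438021 bp from the AXIN2 start.

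Of the 5 transcription genes, 4 were marked with butyrate and 2 in control (CTNNB1, TCF7L2). CTNNB1 had 2566 bp with butyrate and 2796 bp in control, the second exception to wider peaks with butyrate. TCF7L2, a β-catenin partner, had 1202 bp with butyrate and 831 bp in control. TCF7L1, a family member known mainly as a repressor, had an 838 bp butyrate peak at chr2:85132724-85133561 with a −log10 q of 10.8, and its nearest control peak was 78398 bp away. TCF7 had a 342 bp butyrate peak at chr5:134114190-134114531 with a −log10 q of 6.43. That peak lay 821 bp from the TCF7 start, and since the start of VDAC1 lies 812 bp from the same start, the peak cannot be assigned to TCF7 rather than VDAC1. LEF1 was unmarked, with its nearest peak 177684 bp away with butyrate and 177406 bp away in control.

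**Figure D1:**
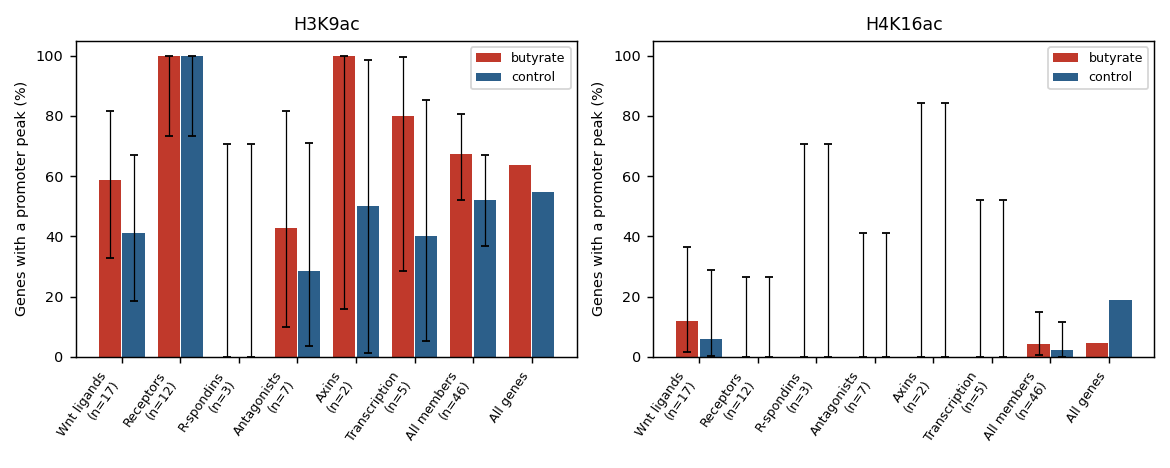
Percentage of genes with an H3K9ac (left) or H4K16ac (right) peak within 1 kb of their start in the butyrate library and the control library, by class of WNT gene and over all genes, with lines for exact 95% binomial intervals over genes. With butyrate and in control, all 12 receptors and none of the 3 R-spondins had an H3K9ac promoter peak, while 10 and 7 of the 17 ligands did.

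Across the 24 genes marked in both conditions, 22 had the wider H3K9ac promoter peaks with butyrate (91.7%), against 80.8% of the 10750 genes of the whole annotation marked in both. A width at least 2 times that of control was seen in 62.5% of the 24 WNT genes and in 21.9% of those 10750 genes. The median summed width of the 24 genes was 2140.5 bp with butyrate and 835.5 bp in control, and over all 10750 genes it was 2174 bp and 1557.5 bp. With butyrate the WNT promoters were therefore close to the median of all marked promoters in width, and in control they were narrower than it. The order of strength within each list was similar. The median −log10 q of the 24 genes was 12.9 with butyrate and 7.18 in control, and that of the 10750 genes was 13.6 in both lists. The butyrate list reached weaker peaks than the control list (a lower −log10 p), which moves with the wider peaks, and its part in the widths was not tested. The peaks of the 2 conditions overlapped by at least 1 bp in all 24 promoters, beside 99.7% of the 10750 genes. They overlapped by at least 50% of both peaks in 9 of the 24 (37.5%), beside 73.5% of those genes.

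**Figure D2:**
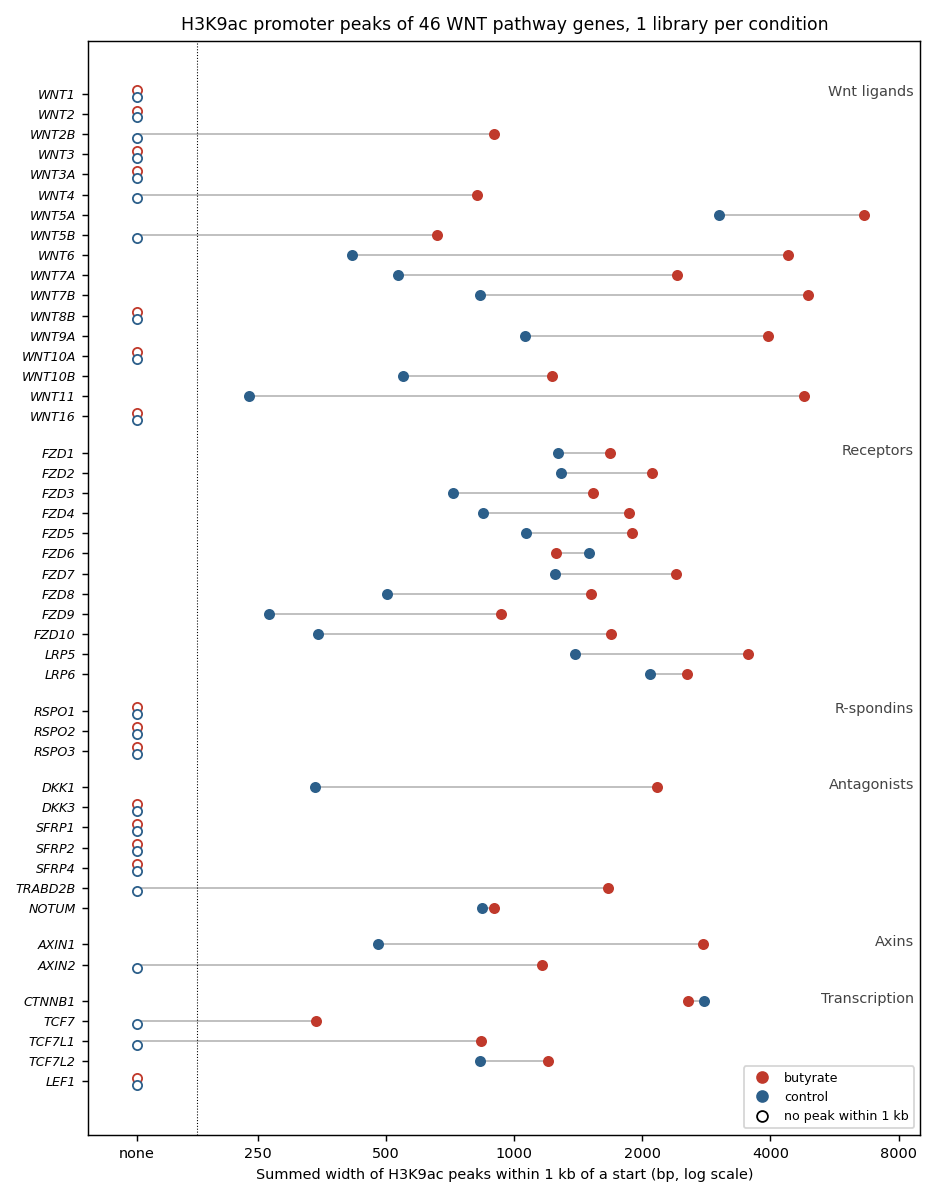
Summed width in bp, on a log scale, of H3K9ac peaks within 1 kb of the start of each of the 46 WNT genes, in the butyrate library and the control library, ordered by class, with open circles at the left for genes with no such peak. WNT5A, at 6650 bp with butyrate and 3031 bp in control, was the widest, and FZD6 and CTNNB1 were the 2 genes with more width in control.

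For H3K9ac, distances near the 1 kb limit were as follows. With butyrate the outermost marked gene was TCF7 at 821 bp and the nearest unmarked gene was WNT10A at 1996 bp. In control they were NOTUM at 505 bp and SFRP4 at 3868 bp. A limit of 2.5 kb would have added WNT3 and WNT10A with butyrate and no gene in control. WNT10A and WNT3 thus had their nearest butyrate peaks between the 2 limits, at 1996 bp and 2346 bp. Their nearest control peaks lay 13823 bp and 46464 bp away. For WNT10A the butyrate distance was from the authors' start and the control distance from the RefSeq start, 6247 bp apart.

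Inside the genes, H3K9ac peaks were more numerous with butyrate. The 46 genes held 185 merged peaks with butyrate and 43 in control, a ratio of 4.3, against a ratio of 2.95 over all genes. Per 100 kb of gene, WNT genes held 7.78 peaks with butyrate and 1.81 in control, and all genes 4.29 and 1.45. More peaks with butyrate were found in 27 of the 46 WNT genes, beside 49.4% of all genes, and more in control in 4 (WNT11, FZD8, LRP6, DKK1), beside 4.34% of all genes. Fewer peaks did not mean less coverage in WNT11, FZD8 and DKK1. Butyrate peaks covered 18.6%, 30.8% and 56.1% of these genes, against 1.92%, 12.4% and 21.5% in control. LRP6 was covered over 0.936% with butyrate and 1.17% in control. Of the 185 butyrate peaks, 151 overlapped no control peak (81.6%, beside 70.6% over all genes), and of the 43 control peaks 1 overlapped no butyrate peak (2.33%, beside 6.65%). Cutting both lists to equal numbers of top peaks lowered the ratio to 1.3. The ratio over all genes at that setting is not given here, so 1.3 cannot be set beside the 2.95 of the full lists.

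WNT7B, a ligand of epithelial and nervous tissues, held the most, 28 peaks with butyrate and 3 in control, covering 44.3% and 4.07% of the gene. TRABD2B held 15 with butyrate and 0 in control, and WNT7A held 15 and 1. These 3 genes were followed by LRP5 with 13 and 3, WNT3 with 12 and 2, and TCF7L1 with 10 and 0, each a difference of 10. WNT3 and DKK3 thus held H3K9ac inside the gene with butyrate while their promoters had none. WNT3A and WNT10A held 6 with butyrate and 0 in control, again without a promoter peak. Without WNT7B and TRABD2B the ratio over the other 44 genes was 3.55. Among equal numbers of top peaks, WNT7B held 10 with butyrate and 3 in control. TRABD2B held 1 and 0, WNT7A 2 and 1, and TCF7L1 1 and 0. WNT3 held 2 in each condition, while LRP5 held 2 with butyrate and 3 in control and so turned round.

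**Figure D3:**
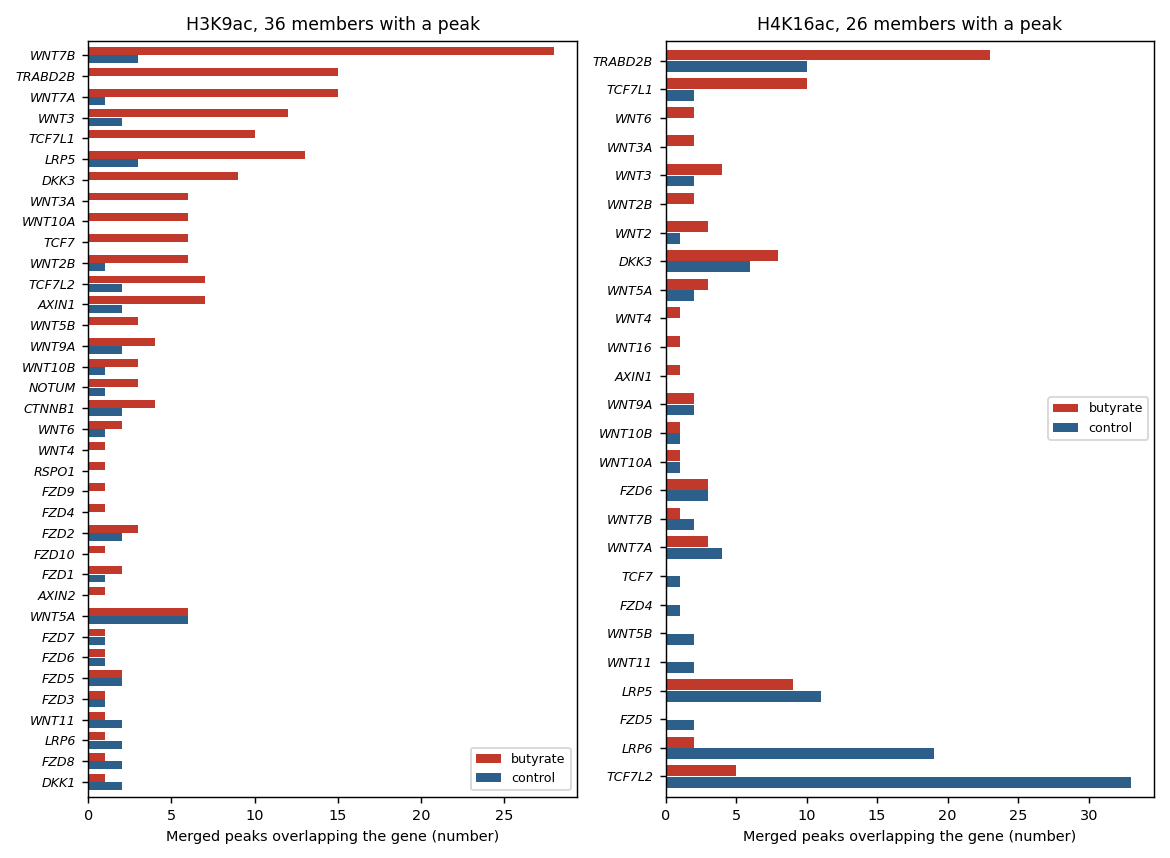
Number of merged H3K9ac and H4K16ac peaks that overlap each WNT pathway gene, in the butyrate library and the control library. WNT7B stands highest for H3K9ac, with 28 peaks with butyrate and 3 in control, and TCF7L2 for H4K16ac, with 5 with butyrate and 33 in control.

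By class, ligands held 93 H3K9ac peaks inside genes with butyrate and 19 in control, receptors 28 and 15, and antagonists 28 and 3. Transcription genes held 27 with butyrate and 4 in control, and axins 8 and 2. The receptors, which were marked at every promoter in both conditions, had the lowest ratio of the classes with a control peak, at 1.87. In the antagonists, TRABD2B and DKK3 held 24 of the 28 butyrate peaks. No peak of either mark lay inside WNT1, WNT8B, RSPO2, RSPO3, SFRP1, SFRP2, SFRP4 or LEF1.

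**Figure D4:**
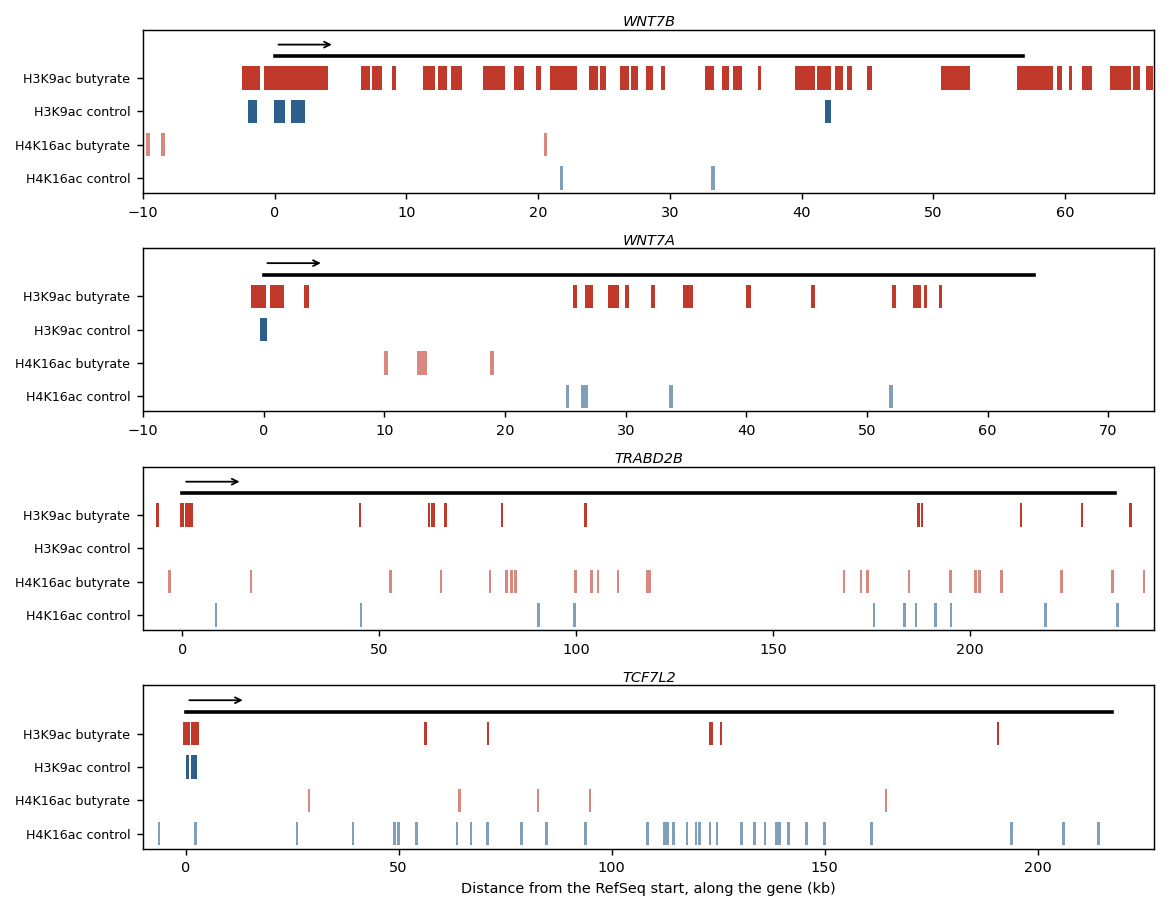
Merged peaks along WNT7B, WNT7A, TRABD2B and TCF7L2, with distance from the gene start in kb on the x axis and a row for each list, butyrate above control for each mark. The narrowest peaks are drawn slightly wider than scale so that they can be seen. H3K9ac peaks run through WNT7B with butyrate (28, against 3 in control), and H4K16ac peaks through TCF7L2 in control (33, against 5 with butyrate).

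H4K16ac was nearly absent from WNT gene promoters. With butyrate 2 of the 46 genes had an H4K16ac promoter peak (4.35%, 0.531 to 14.8%), and in control 1 did (2.17%, 0.055 to 11.5%). Over all genes, 4.63% with butyrate and 18.8% in control had one, and the control share of WNT genes lay below the share of all genes, which was outside its interval. Those with butyrate alone were WNT10B and WNT16, beside 2.57% of all genes and 3.16% of those without a control peak, and the one in control alone was WNT5A, beside 16.7% of all genes and 89.0% of those with a control peak. No WNT gene had one in both conditions, beside 2.06% of all genes. WNT10B had a 280 bp peak at chr12:48971089-48971368 with a −log10 q of 0.621, and WNT16 a 391 bp peak at chr7:121327813-121328203 with a −log10 q of 0.207. WNT5A had a 258 bp control peak at chr3:55488025-55488282 with a −log10 q of 1.42, the only one of the 3 that passed a q of 0.05. With the RefSeq start only, WNT10B alone of the 3 kept its peak. With a limit of 2.5 kb, 3 WNT genes had an H4K16ac peak with butyrate alone and 5 in control alone, beside 6.44% and 20.8% of all genes.

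WNT10B was the gene with both marks at its promoter with butyrate, and WNT5A the one with both in control. Of the WNT genes with an H3K9ac promoter peak, 3.23% with butyrate and 4.17% in control also had H4K16ac, against 5.58% and 30.8% of all such genes. The control WNT5A H4K16ac peak lay inside its control H3K9ac peak.

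Inside genes, the H4K16ac counts were 87 with butyrate and 107 in control, a ratio of 0.813 where all genes gave 0.346. Of the WNT genes, 12 held more with butyrate, beside 10.8% of all genes, and 10 held more in control, beside 38.2%. TCF7L2 held 5 peaks with butyrate and 33 in control, and LRP6 2 and 19. TRABD2B went the other way with 23 with butyrate and 10 in control, and so did TCF7L1 with 10 and 2. Without TCF7L2 the ratio over 45 genes was 1.11, and without TCF7L2 and LRP6 1.45, so that leaving out TCF7L2 alone turned the ratio round. With equal numbers of top peaks it was 1.61. Of peaks with a q of 0.05 or less, 2 lay inside WNT genes with butyrate, both in TRABD2B, and 47 in control, of which 19 lay in TCF7L2, 8 in LRP5 and 4 in TRABD2B. At that limit TRABD2B thus turned round, and TCF7L1 held 0 in both.

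Other WNT pathway genes, a list of 56, were counted in the same way for H3K9ac. A promoter peak was found in 43 with butyrate and 36 in control, beside 63.7% and 54.6% of all genes. With butyrate alone 7 were marked, and in control alone 0, beside 9.29% and 0.182% of all genes. These 7 were 35.0% of the 20 listed genes that control left unmarked, beside 20.5% of all such genes. No interval was computed for the 35.0%. With equal numbers of top peaks, however, 3 of the 56 were marked with butyrate alone and 3 in control alone, beside 3.23% and 2.65% of all genes. The 46 WNT genes gave 6 and 0 at that setting. The 7 with butyrate alone in the full lists were WLS, which carries WNT ligands out of the cell, LGR5, a receptor for R-spondins, KREMEN1 and KREMEN2, which bind DKK proteins, the inhibitor APCDD1, the corepressor TLE1, and the ligand WNT8A. KREMEN2 had the strongest of these peaks at a −log10 q of 18.6 and KREMEN1 had 17.1, while WNT8A had 2.34. Among the 13 unmarked in both conditions were the secreted antagonists WIF1, FRZB, SFRP5 and DKK2, the fourth R-spondin, RSPO4, and SOST. DKK4, of the same family as DKK2, was instead marked in both, at a −log10 q of 9.3 with butyrate and 14.8 in control. The summits, however, lay at -803 bp with butyrate and -777 bp in control from the DKK4 start (upstream of it). No H3K9ac peak lay inside DKK4 in either condition, so the peak may not belong to DKK4. For H4K16ac, 2 of the 56 were marked with butyrate (PTK7, ROR2) and 9 in control, beside 4.63% and 18.8% of all genes. In control alone 8 were marked, beside 16.7% of all genes: DVL1, GSK3A, CSNK1A1, LGR6, DKK4, TNKS2, PYGO2 and CCND1.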

How the data were processed

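ChIP-seq peak lists of KGN cells were used, 1 per condition and antibody. Per the submitters' processing notes, CASAVA 1.7 and MACS2 2.1.0 were used and the build was hg19 or GRCh37. The gene starts inside the deposited lists, however, lay a median of 66 bp from RefSeq GRCh38.p14 starts, so coordinates are given on GRCh38. Per the file headers, the authors deposited for each peak a fold enrichment, a −log10 p, a −log10 q and a score. The aligner is not given in the sources used here. Names of H4K16ac peaks carry the letters k12, whereas the label says H4K16ac, which is the name used here.

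Rows of a list that share bases were merged, on chromosomes 1 to 22 and X. A merged peak was given the highest fold, the highest −log10 p and the highest −log10 q of its rows, which can come from different rows. A gene was marked when a merged peak lay within 1 kb of the authors' start or the RefSeq start. Distances to the nearest peak were taken from the closer of these starts, which can differ between lists. Of the 46 genes, 39 had both, a median of 68 bp apart, and in 8 of these the starts differed by over 1 kb. A peak was inside a gene when it overlapped the RefSeq span by 1 bp. Of 19974 protein-coding genes, 216 with a peak near an end and no strand were left out. Shares have exact Clopper-Pearson 95% intervals. The merging of peaks and their overlap with windows were tested on simulated peaks. Python 3.11.15, pandas 2.3.3, numpy 2.4.6, scipy 1.17.1 and matplotlib 3.10.9 were used. The members and lists were chosen with earlier results of these data known. Described in full were genes whose promoter call differed between conditions, the 5 widest butyrate H3K9ac promoters marked in both, the 5 largest differences in H3K9ac peaks inside the gene, and unmarked genes. The alternatives were other windows, starts, peak thresholds, overlaps and equal list lengths.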

Additional observations from a re-analysis of the deposited data

How the results depend on the processing

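Of 124 recomputed counts and ratios, 81 stayed within 1.5 times the reported value, 42 moved further and 1 turned round. The number of WNT genes with an H3K9ac promoter peak with butyrate alone was 15 at a −log10 q of 5 or more and 14 at a fold of 5 or more, beside 7.49% and 8.13% of all genes. It was 6 to 9 under the other settings, beside 3.23% to 10.6% of all genes. The number in control alone was 1 when a summit had to lie in the window (NOTUM) and 1 at a fold of 5 or more (LRP6), beside 0.212% and 6.43% of all genes. For H4K16ac the number with butyrate alone was 1 with a 500 bp window, with the RefSeq start only and with a summit in the window. Over all genes these shares were 1.33%, 2.23% and 2.13%. It was 0 at a q of 0.05 or less, a −log10 q of 5 or more or a fold of 5 or more, beside 0.0202%, 0.0% and 0.0% of all genes. The number in control alone was 5 with a 2.5 kb window and 0 with the RefSeq start only, a −log10 q of 5 or a fold of 5. Over all genes these shares were 20.8%, 15.3%, 0.0959% and 0.287%. Genes with both marks numbered 3 with butyrate and 4 in control at 2.5 kb, 0 with butyrate at a q of 0.05, 0 in control with the RefSeq start only, and 0 in each at a −log10 q of 5 or a fold of 5.

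The ratio of H3K9ac peaks inside WNT genes was 1.3 with equal numbers of top peaks, 2.25 at a fold of 5 or more and 7.65 more than 1 kb from the start. The H4K16ac ratio turned round to 1.61 with equal numbers of top peaks and was 0.0426 at a q of 0.05 or less. Among the other pathway genes, H3K9ac with butyrate alone and in control alone numbered 3 and 3 with equal numbers of top peaks. Over all genes these shares were 3.23% and 2.65%. The control-alone number was 1 at 500 bp and 3 at a fold of 5, beside 0.243% and 6.43% of all genes. H4K16ac with butyrate alone numbered 5 at 2.5 kb, 2 with equal numbers of top peaks, and 0 at 500 bp, a q of 0.05, a −log10 q of 5 and a fold of 5. Its control-alone number was 16 at 2.5 kb, 5 with equal numbers of top peaks and at a q of 0.05, and 0 at a −log10 q of 5 and a fold of 5. With an overlap of 50% of both peaks, 9 of the 24 H3K9ac promoters were shared, beside 73.5% of all genes marked in both. The causes were not tested. Adding all RefSeq starts was chosen after seeing the data and put WNT2B among the genes marked in both conditions. No H4K16ac peak was left inside WNT genes in either list at a −log10 q of 5 or a fold of 5, so no ratio could be given. No paired analysis was possible because each condition and antibody had 1 library. Leaving out a replicate was likewise impossible. The read depth is unknown, so a list's length cannot be told apart from a change of the mark.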
